A study of Homo sapiens with 8 samples.

Results

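ALK and RET are receptor tyrosine kinases of the developing sympathetic nervous system, and 10 genes of their signalling systems were described in SH-SY5Y cells that overexpressed the nuclear receptor ERRg. The 10 genes were taken by name from the 67060 genes of the deposited count table: the receptors ALK, LTK and RET, the RET co-receptors GFRA1, GFRA2 and GFRA3, and the ligands PTN, MDK, GDNF and ARTN. All 10 were found in the table and all 10 passed the filter on low counts. SH-SY5Y is an established human neuroblastoma line, which the labels call a neuronal progenitor. RNA was sequenced from 8 libraries, 4 of each group. In the ERRg group the cells had been given an adenovirus for BioID-Flag-ERRg, in which the biotin ligase BioID is joined to Flag-tagged estrogen-related receptor gamma. In the GFP group the virus was for BioID-GFP-NLS, the same ligase joined to nuclear-localised green fluorescent protein (NLS marks the localisation signal). Both groups thus carried an adenovirus and a biotin ligase. Each received 0.5 ul of virus at 80% confluence for 48 h, and the labels describe no group without virus. The sources used here do not name the promoter that drives the transgenes. The comparison asks how the ERRg construct changed expression in these cells relative to the GFP construct. The labels do not say that the replicates were separate cultures, so every p-value rests on the spread of these 8 libraries alone, and that spread may be purely technical.

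ALK and its close relative LTK are activated by the small secreted proteins ALKAL1 and ALKAL2, and ALK is a known oncogene of neuroblastoma. PTN (pleiotrophin) and MDK (midkine) are heparin-binding growth factors that have been described as ALK ligands and that also bind receptor phosphatases, syndecans and LRP1. RET does not bind its ligands alone: each ligand of the GDNF family first binds a membrane-anchored GFRA co-receptor, GDNF preferring GFRA1, neurturin GFRA2 and artemin (ARTN) GFRA3, and the complex then engages RET.

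Reads assigned to genes numbered 21.8 ± 0.869 M per library in ERRg (range 21.02 to 23.0) and 31.5 ± 3.22 M in GFP (range 27.7 to 35.5; SD, n = 4 each). Levels are given as CPM, counts per M reads after TMM scaling of the library sizes. ESRRG, the gene of the introduced receptor, averaged 808 ± 73.2 CPM in ERRg libraries and 34.9 ± 2.34 CPM in GFP libraries (SD, n = 4 each), with reads of the virus and of the cells' own gene not separated. Reads outside annotated exons made up 46.7% ± 1.31 of an ERRg library and 20.9% ± 3.58 of a GFP library (SD, n = 4 each; two-sided exact permutation p = 0.0286, the lowest that 4 against 4 can give). This share separated the groups completely, so its part in any difference below and that of the construct cannot be told apart. Among 9 sympathetic neuroblastoma markers, TH and CHGA were listed at 0 in all 8 libraries, which was not read as absence of expression. The markers summed to 503 to 553 CPM in ERRg and 732 to 828 CPM in GFP, with 0 of 7 tested genes higher and 5 lower. Of all tested genes 38.8% were called higher and 35.9% lower, 74.7% in either direction. The 7 fibroblast markers, all detected, summed to 174 to 208 CPM in ERRg and 412 to 474 CPM in GFP, with 1 gene higher and 6 lower. The 5 Schwann cell markers summed to 3.45 to 4.51 CPM in ERRg and 4.71 to 5.33 CPM in GFP, with 1 of 4 tested higher and 2 lower. The 4 endothelial markers summed to 1.202 to 2.40 CPM in ERRg and 1.40 to 1.86 CPM in GFP, and the 3 blood markers, CD3E at 0, to 0.205 to 0.263 CPM in ERRg and 0.0357 to 0.360 CPM in GFP. The part of these markers in the results was not tested. In bulk RNA, fewer cells of a type and less RNA per cell cannot be told apart.

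The systems did not move as a block. GFRA3, the artemin co-receptor, was far higher in ERRg, and its ligand ARTN was called higher by a small margin. ALK, LTK, PTN and MDK were lower. RET, GFRA1, GFRA2 and GDNF did not pass the test. Thus 2 of the 10 genes were called higher and 4 lower by edgeR's quasi-likelihood test (Benjamini-Hochberg adjusted p under 0.05 over 21993 genes), while 38.8% of all tested genes were called higher and 35.9% lower, 74.7% in either direction. With so many genes called, the share of the 10 genes that was called is no larger than that of the table as a whole. The median log2 fold change, ERRg over GFP, was -0.09 over the 10 genes and 0.09 over all genes tested. The plot of levels by library shows each gene.

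**Figure D1:**
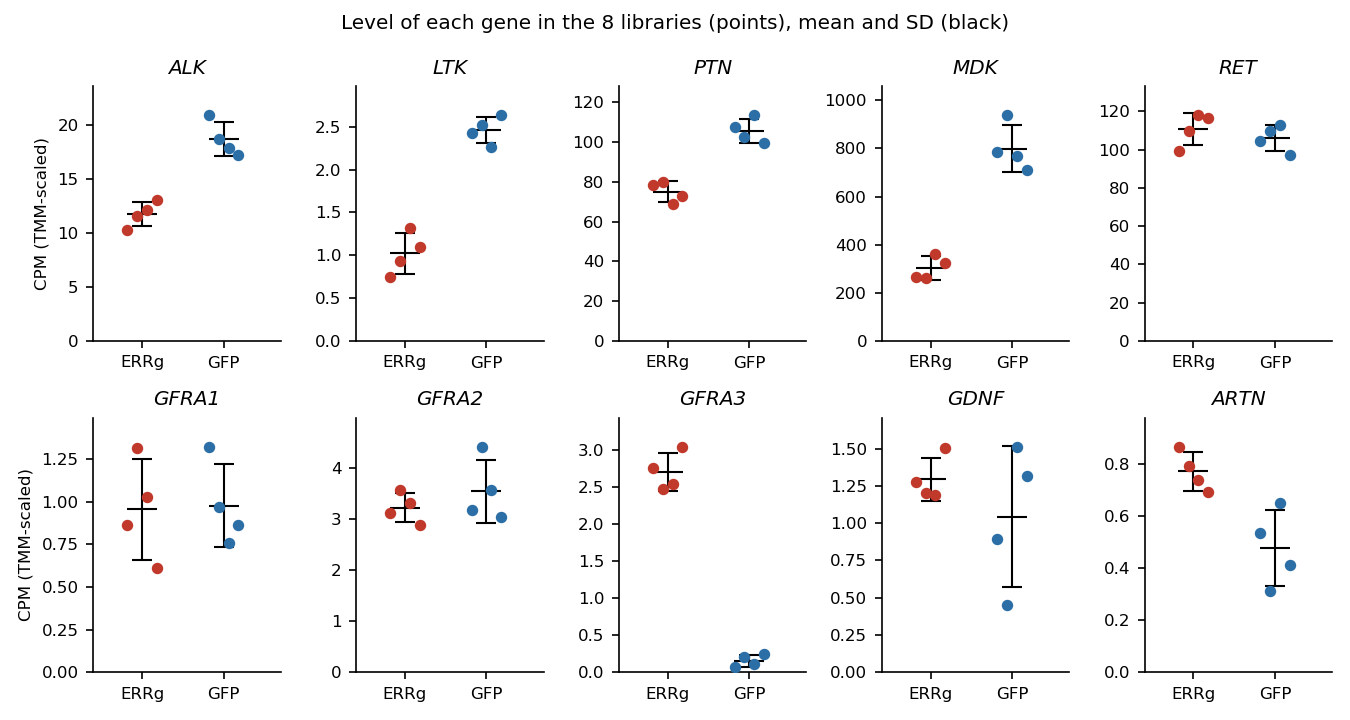
Levels in CPM (counts per M reads on TMM library sizes, linear axes from 0) of the 10 genes in each of the 4 ERRg libraries and 4 GFP libraries, with bars for the group mean and SD. GFRA3 lies at 2.48 to 3.05 CPM in ERRg and at 0.0714 to 0.247 CPM in GFP, while the ERRg and GFP libraries of RET, GFRA1, GFRA2 and GDNF overlap.

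A second scaling is given beside the first because fold changes in this table followed base composition. Coding genes were split into 10 equal bins by transcript GC content. The bin lowest in GC (30.2% to 38.4%) had a median of 0.62 on the log2 scale, against -1.33 for the bin highest in GC (61.5% to 74.5%). Transcripts of 8 of the 10 genes have 48.7% to 68.2% GC, and only PTN (43.2%) and GFRA1 (45.8%) have less. The second fit removed, in each library, a smooth trend of the counts with GC content, transcript length and gene span over 13426 coding genes. In that fit 5 of the 10 genes were called higher (RET, GFRA2, GFRA3, GDNF and ARTN) and 1 lower (PTN), against a background of 35.9% higher and 35.6% lower, 71.5% in either direction. GFRA3, ARTN and PTN were thus called in the same direction by both fits. The median log2 fold change of the 10 genes was 0.30 with these offsets. Scaling shifted all genes together as well: over all genes the median log2 fold change was 0.09 under TMM, 0.40 under upper-quartile scaling and 0.50 under plain library totals.

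**Figure D2:**
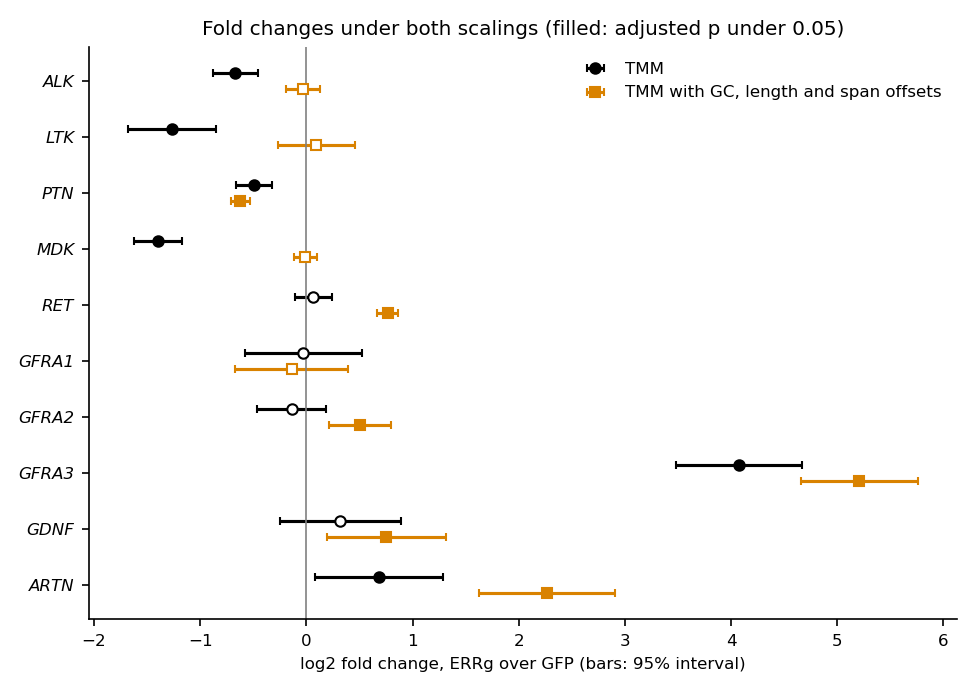
Log2 fold changes, ERRg over GFP, of the 10 genes under TMM scaling (circles) and with added offsets for GC content, length and span (squares), with bars for the 95% interval; filled symbols have an adjusted p under 0.05. GFRA3 stands at 4.07 and 5.21, PTN is below 0 under both, and the ALK, LTK and MDK squares sit at -0.03, 0.09 and -0.01.

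**Figure D3:**
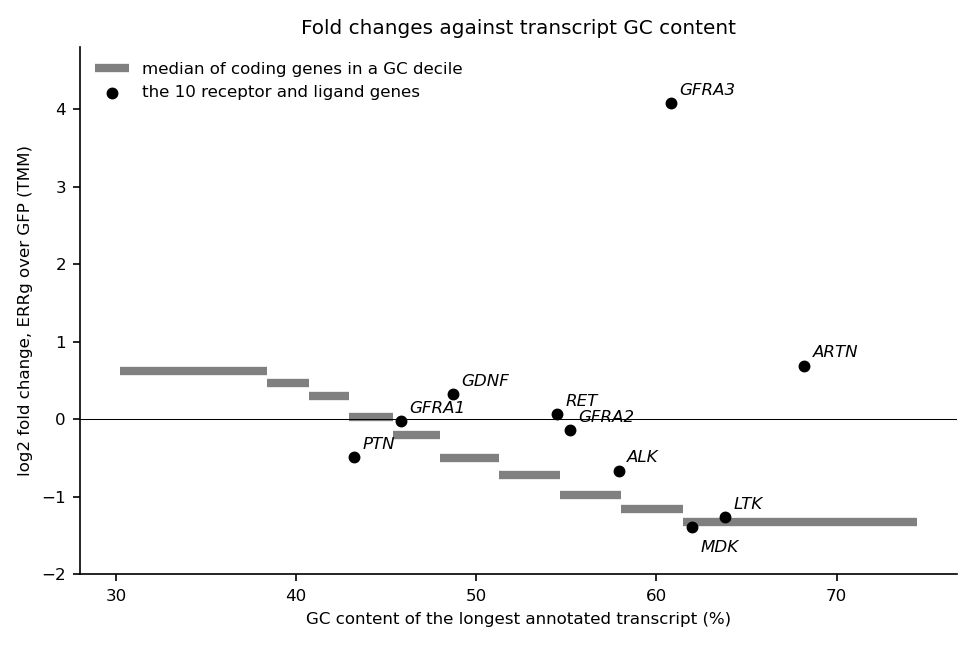
Log2 fold change (TMM, ERRg over GFP) of the 10 genes against the GC content of the longest annotated transcript in percent, with grey bars for the median of coding genes in each of 10 bins of GC content. The bars descend to -1.33 at the highest GC content; MDK and LTK lie close to that bar and ARTN above it, while GFRA3 lies above the bar of its own bin at -1.15.

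The promoters are shown for GFRA3, whose change was the largest of the 10 genes, and for the receptors RET and ALK. The windows come from RefSeq (GRCh38.p14), run 5′ to 3′ on the strand of the gene and are limited to bases upstream of the annotated transcripts, at chr5:138274672-138274871 (minus strand) for GFRA3, chr10:43076819-43077026 (plus strand) for RET and chr2:29921587-29921836 (minus strand) for ALK. Capitals mark GC boxes, GGGCGG or its reverse complement CCGCCC, with overlapping matches counted.
GFRA3: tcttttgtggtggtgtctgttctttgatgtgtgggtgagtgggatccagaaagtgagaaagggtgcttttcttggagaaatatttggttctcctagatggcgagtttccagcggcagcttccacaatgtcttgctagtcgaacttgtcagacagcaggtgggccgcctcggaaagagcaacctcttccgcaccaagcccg
RET: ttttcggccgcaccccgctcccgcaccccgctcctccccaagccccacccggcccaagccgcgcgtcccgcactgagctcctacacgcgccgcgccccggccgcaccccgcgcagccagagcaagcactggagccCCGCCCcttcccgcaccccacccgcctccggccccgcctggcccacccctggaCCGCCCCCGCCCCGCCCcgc
ALK: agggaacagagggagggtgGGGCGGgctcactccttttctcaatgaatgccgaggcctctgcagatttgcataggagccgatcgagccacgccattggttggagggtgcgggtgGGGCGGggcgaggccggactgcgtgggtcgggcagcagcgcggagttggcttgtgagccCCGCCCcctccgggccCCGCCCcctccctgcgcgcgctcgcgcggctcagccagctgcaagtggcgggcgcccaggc
The GFRA3 stretch holds 0 GC boxes, and those of RET and ALK 4 each. Their base composition was 51.5% GC for GFRA3, 80.8% for RET and 71.6% for ALK. In the table's full windows of 300 bases, 8 of the 10 genes were matched with 16 windows, and MDK and GFRA2 were not matched. GGGCGG on either strand was in 7 of these 16 windows, from 6 genes, and in 45.0% of 35116 windows of all genes. The ERR response element, searched as TNAAGGTCA on both strands, was in 0 of the 16 and in 0.951% of all windows. The TATA box, searched as TATAAA on both strands, was likewise in 0 of the 16 and in 11.5% of all windows. These matches describe letters in a short window and say nothing of binding.

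ALK (ENSG00000171094.18, chromosome 2, 29192774 to 29921566, minus strand, GRCh38) was lower in ERRg. It had 250, 308, 296 and 320 reads in ERRg libraries 1 to 4, and 585, 542, 496 and 419 reads in GFP libraries 1 to 4. These correspond to 10.3, 11.6, 12.1 and 13.0 CPM in ERRg and to 20.9, 18.7, 17.8 and 17.2 CPM in GFP. Every ERRg library lay below every GFP library. Means were 11.8 ± 1.14 CPM in ERRg and 18.7 ± 1.59 CPM in GFP (mean ± SD, n = 4 each), a log2 fold change of -0.67 (SE 0.11, edgeR adjusted p = 1.13e-05). The call was lost with the offsets for GC content, length and span (log2 fold change -0.03, edgeR adjusted p = 0.734), and the direction turned with an offset for GC content alone (0.33, edgeR adjusted p = 0.00335). Coding genes in the same GC bin had a median log2 fold change of -0.97, so ALK lay 0.31 above it.

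LTK (ENSG00000062524.16, chromosome 15, 41503638 to 41513887, minus strand), the receptor closest to ALK in structure, was lower in ERRg at a low level. Its CPM values were 0.741, 0.939, 1.31 and 1.10 in ERRg libraries 1 to 4 and 2.43, 2.52, 2.27 and 2.63 in GFP libraries 1 to 4, from 18 to 32 reads per ERRg library and 63 to 73 per GFP library. The groups did not overlap. Means were 1.02 ± 0.243 CPM in ERRg and 2.46 ± 0.155 CPM in GFP (mean ± SD, n = 4 each; log2 fold change -1.26, SE 0.21, edgeR adjusted p = 1.86e-05). With the offsets the value was 0.09 (edgeR adjusted p = 0.663). Its GC bin had a median of -1.33.

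RET (ENSG00000165731.20, chromosome 10, 43077027 to 43130351, plus strand), the shared signalling receptor of the GDNF family, had the highest RPKM (CPM per kilobase of merged exons) of the 3 kinases in both groups. It was at 99.4, 110, 118 and 116 CPM in ERRg libraries 1 to 4 and at 104, 110, 113 and 96.9 CPM in GFP libraries 1 to 4. The groups overlapped. Means were 111 ± 8.36 CPM in ERRg and 106 ± 6.99 CPM in GFP (mean ± SD, n = 4 each; log2 fold change 0.06, SE 0.09, edgeR adjusted p = 0.517). RET was called higher with the offsets (0.77, edgeR adjusted p = 8.17e-10), with upper-quartile factors (0.37, adjusted p = 0.000443) and with plain library totals (0.47, adjusted p = 4.62e-05). Coding genes of similar GC content had a median of -0.73 under TMM.

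The 3 co-receptors differed from one another. GFRA3 (ENSG00000146013.11, chromosome 5, 138252379 to 138274671, minus strand) had 67, 66, 62 and 75 reads in ERRg libraries 1 to 4 and 2, 6, 3 and 6 reads in GFP libraries 1 to 4. In CPM these were 2.76, 2.48, 2.54 and 3.05 in ERRg, and 0.0714, 0.207, 0.108 and 0.247 in GFP. All 4 ERRg libraries were high, and the GFP libraries lay near the floor of 3 reads, which corresponds to 0.103 to 0.123 CPM. Means were 2.71 ± 0.257 CPM in ERRg and 0.158 ± 0.0823 CPM in GFP (mean ± SD, n = 4 each), a log2 fold change of 4.07 (SE 0.30, edgeR adjusted p = 3.19e-10). The summed reads, 270 in ERRg and 17 in GFP, gave a CPM ratio of 17.3 with an exact 95% interval of 10.6 to 30.2, which covers counting error only. GFRA3 ranked 22 from the highest of 21993 genes by log2 fold change, and 5 of 13426 coding genes with the offsets (5.21, edgeR adjusted p = 5.85e-11). It passed the filter on low counts only through the ERRg libraries, where it was high. Its rank therefore describes the gene and is no separate support for its change. Leaving out any library kept the log2 fold change between 3.75 and 4.26. With the share of reads outside exons as a covariate it was 5.26 but not called (edgeR adjusted p = 0.864). CDC25C, a cell-cycle phosphatase gene that ends 10594 bases upstream on the same strand, had a log2 fold change of -0.72.

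GFRA2 (ENSG00000168546.11, chromosome 8, 21690403 to 21812357, minus strand), the neurturin co-receptor, was at 3.13, 3.57, 3.32 and 2.89 CPM in ERRg libraries 1 to 4 and at 3.18, 4.42, 3.56 and 3.05 CPM in GFP libraries 1 to 4. The groups overlapped, with means of 3.23 ± 0.290 CPM in ERRg and 3.55 ± 0.618 CPM in GFP (mean ± SD, n = 4 each; log2 fold change -0.14, SE 0.16, edgeR adjusted p = 0.444). The direction turned with the offsets, where it was called higher (0.50, edgeR adjusted p = 0.00573), and also with upper-quartile factors (0.17) and library totals (0.27). GFRA1 (ENSG00000151892.15, chromosome 10, 116056925 to 116273467, minus strand), the GDNF co-receptor, rested on 15 to 35 reads per ERRg library and 21 to 37 per GFP library. It was at 0.864, 1.31, 1.03 and 0.610 CPM in ERRg libraries 1 to 4 and at 1.32, 0.966, 0.756 and 0.864 CPM in GFP libraries 1 to 4, with overlapping groups. Means were 0.954 ± 0.295 CPM in ERRg and 0.977 ± 0.245 CPM in GFP (mean ± SD, n = 4 each; log2 fold change -0.03, SE 0.28, edgeR adjusted p = 0.924). Its direction was not settled: it was 0.27 under upper-quartile scaling and 0.37 under library totals, neither called, and -0.14 with the offsets (edgeR adjusted p = 0.664).

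The co-receptor makeup therefore differed between the groups when levels were divided by the length of merged exons (RPKM). Of the summed RPKM of the 3 co-receptors, GFRA3 made up 66.6% ± 4.71 in ERRg and 9.64% ± 5.00 in GFP (SD, n = 4 each). GFRA2 made up 28.4% ± 3.12 in ERRg and 77.5% ± 4.64 in GFP, and GFRA1 4.97% ± 1.61 in ERRg and 12.8% ± 4.03 in GFP (SD, n = 4 each). GFRA3 was the leading co-receptor by RPKM in all 4 ERRg libraries (61.5% to 72.5%), and GFRA2 led in all 4 GFP libraries (71.7% to 82.6%). The order in ERRg rests on the division by length, 2039 bases for GFRA3 and 5716 for GFRA2. Without that division GFRA2 was ahead in ERRg on the mean (3.23 CPM against 2.71 CPM) and in libraries 1 to 3, and GFRA3 in library 4.

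Of the RET ligands, GDNF (ENSG00000168621.15, chromosome 5, 37812677 to 37839686, minus strand) was at 1.28, 1.20, 1.19 and 1.50 CPM in ERRg libraries 1 to 4 and at 0.892, 0.448, 1.51 and 1.32 CPM in GFP libraries 1 to 4. The GFP libraries spread more widely and enclosed the ERRg values on both sides. Means were 1.29 ± 0.146 CPM in ERRg and 1.04 ± 0.473 CPM in GFP (mean ± SD, n = 4 each; log2 fold change 0.32, SE 0.29, edgeR adjusted p = 0.324). GDNF was called with the offsets (0.75, edgeR adjusted p = 0.0251) and with library totals (0.72, adjusted p = 0.0297). GDNF-AS1, which runs on the opposite strand and shares 526 bases of exon with GDNF, was called higher at 0.88 (edgeR adjusted p = 0.0137). Whether the counting used the strand is not stated, so reads of these genes may not be fully separated.

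ARTN (ENSG00000117407.17, chromosome 1, 43933320 to 43937241, plus strand), the ligand that prefers GFRA3, had 21, 21, 18 and 17 reads in ERRg libraries 1 to 4 and 15, 9, 18 and 10 reads in GFP libraries 1 to 4. It was at 0.864, 0.789, 0.739 and 0.691 CPM in ERRg and at 0.535, 0.310, 0.648 and 0.412 CPM in GFP. Every ERRg library lay above every GFP library, by a narrow gap between 0.691 and 0.648 CPM. Means were 0.771 ± 0.0739 CPM in ERRg and 0.476 ± 0.147 CPM in GFP (mean ± SD, n = 4 each; log2 fold change 0.69, SE 0.31, edgeR adjusted p = 0.0488). The call held without GFP library 3 (0.79, adjusted p = 0.0397) but not without any of the other 7 libraries in turn (0.47 to 0.72, adjusted p = 0.0710 to 0.178). With the offsets it was 2.27 (edgeR adjusted p = 6.88e-06), and its transcript was the richest in GC of the 10 genes at 68.2%. ST3GAL3, a sialyltransferase gene that ends 2155 bases upstream on the same strand, had a log2 fold change of 1.00.

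The growth factors PTN and MDK had the highest RPKM of the 10 genes in both groups and were lower in ERRg. MDK (ENSG00000110492.15, chromosome 11, 46380756 to 46383837, plus strand) was at 265, 261, 363 and 326 CPM in ERRg libraries 1 to 4 and at 783, 938, 767 and 711 CPM in GFP libraries 1 to 4. The highest ERRg library, at 363 CPM, was far below the lowest GFP library, at 711 CPM. Means were 304 ± 49.4 CPM in ERRg and 799.9 ± 97.1 CPM in GFP (mean ± SD, n = 4 each), a log2 fold change of -1.40 (SE 0.11, edgeR adjusted p = 1.06e-09). With the offsets it was -0.01 and not called (edgeR adjusted p = 0.896), and with the offset for GC content alone -0.19 (edgeR adjusted p = 0.00489). Coding genes of its GC bin had a median of -1.33. The upstream neighbour DGKZ, a diacylglycerol kinase gene ending 202 bases away on the same strand, had a log2 fold change of -1.35. Unlike MDK, DGKZ stayed lower and called with the offsets (-0.33, edgeR adjusted p = 0.000154).

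PTN (ENSG00000105894.12, chromosome 7, 137227341 to 137343865, minus strand) was at 78.4, 80.2, 68.9 and 73.0 CPM in ERRg libraries 1 to 4 and at 107, 102, 113 and 99.7 CPM in GFP libraries 1 to 4. The groups did not overlap. Means were 75.1 ± 5.13 CPM in ERRg and 106 ± 6.07 CPM in GFP (mean ± SD, n = 4 each), a log2 fold change of -0.49 (SE 0.09, edgeR adjusted p = 3.57e-05). PTN was the sole lower gene of the 10 with the offsets (-0.62, edgeR adjusted p = 3.35e-09), where 9.71% of coding genes had a lower log2 fold change. Upper-quartile factors (-0.19, edgeR adjusted p = 0.0552) and plain library totals (-0.09, edgeR adjusted p = 0.387) ended the call.

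Ordered by RPKM, MDK led in both groups, at 138 ± 22.5 in ERRg and 364 ± 44.2 in GFP, followed by PTN at 43.8 ± 3.0 in ERRg and 61.7 ± 3.54 in GFP, and RET at 16.03 ± 1.21 in ERRg and 15.3 ± 1.01 in GFP (SD, n = 4 each). The library ranges of these 3 genes did not overlap within either group. ALK came next at 1.60 ± 0.155 RPKM in ERRg and 2.54 ± 0.216 RPKM in GFP. In ERRg it overlapped GFRA3 at 1.33 ± 0.126 RPKM, whereas in GFP GFRA3 was the lowest of the 10 genes at 0.0776 ± 0.0404 RPKM and overlapped GFRA1 at 0.101 ± 0.0253 RPKM. In ERRg, GFRA2 (0.564 ± 0.0507 RPKM) stood apart from its neighbours. GDNF, LTK and ARTN, at 0.303, 0.293 and 0.290 RPKM, overlapped one another, and GFRA1 was the lowest at 0.0985 RPKM. In GFP, LTK (0.705 RPKM) and GFRA2 (0.621 RPKM) overlapped, and so did GDNF (0.244 RPKM) with ARTN (0.179 RPKM) and ARTN with GFRA1.

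Ratios of counts within a library do not depend on library size, and 7 were compared by exact two-sided permutation over 70 arrangements, where the smallest p is 0.0286 and the smallest after adjustment over the 7 was 0.0400. The log2 ratio of GFRA3 to GFRA2 averaged -0.25 in ERRg and -4.45 in GFP, a difference of 4.20, and that of GFRA3 to GFRA1 averaged 1.53 in ERRg and -2.60 in GFP, a difference of 4.13 (n = 4 each; exact permutation p = 0.0286, adjusted 0.0400 for both). The log2 ratio of RET to ALK was 3.27, 3.24, 3.28 and 3.16 in ERRg libraries 1 to 4, against 2.32, 2.55, 2.66 and 2.49 in GFP libraries 1 to 4. The difference was 0.73 (exact permutation p = 0.0286, adjusted 0.0400) and was 0.80 with the offsets. These 3 ratios separated the groups without overlap under both scalings. The ratios of GFRA3 to GFRA2 and to GFRA1 rest on the same GFRA3 reads as its log2 fold change. They are no separate support for that change. The ratio of PTN to MDK was higher in ERRg on the counts (-2.004 in ERRg and -2.91 in GFP, difference 0.91) but lower with the offsets (difference -0.62), each with an adjusted exact p = 0.0400. The ratio of ALK to LTK differed by 0.61 on the counts (3.52 in ERRg and 2.91 in GFP, adjusted exact p = 0.0400) and by -0.12 with the offsets, where the adjusted exact p was 0.314. GFRA2 to GFRA1 (1.79 in ERRg and 1.86 in GFP, difference -0.07, and 0.67 with the offsets, exact permutation p = 0.886 on the counts) and ARTN to GDNF (-0.73 in ERRg and -1.01 in GFP, exact permutation p = 0.314) were not called, and ARTN to GDNF reached a difference of 1.45 with the offsets (adjusted exact p = 0.0400). Without any GFP library in turn, where the smallest p for 4 against 3 is also 0.0286, 0 of the 7 ratios stayed under an adjusted p of 0.05. The adjusted value depends on how many ratios reach that smallest p, so it moves in coarse steps. Without GFP library 1, 3 or 4, PTN to MDK, RET to ALK and the GFRA3 ratios had an adjusted exact p of 0.05. That value lies at the threshold, and ALK to LTK had 0.08. Without GFP library 2 these ratios had 0.0667 to 0.08. Over the fits without a GFP library, the differences ranged from 0.67 to 0.78 for RET to ALK, 3.69 to 4.42 for GFRA3 to GFRA1, 3.97 to 4.51 for GFRA3 to GFRA2, 0.82 to 0.96 for PTN to MDK and 0.54 to 0.67 for ALK to LTK.

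**Figure D4:**
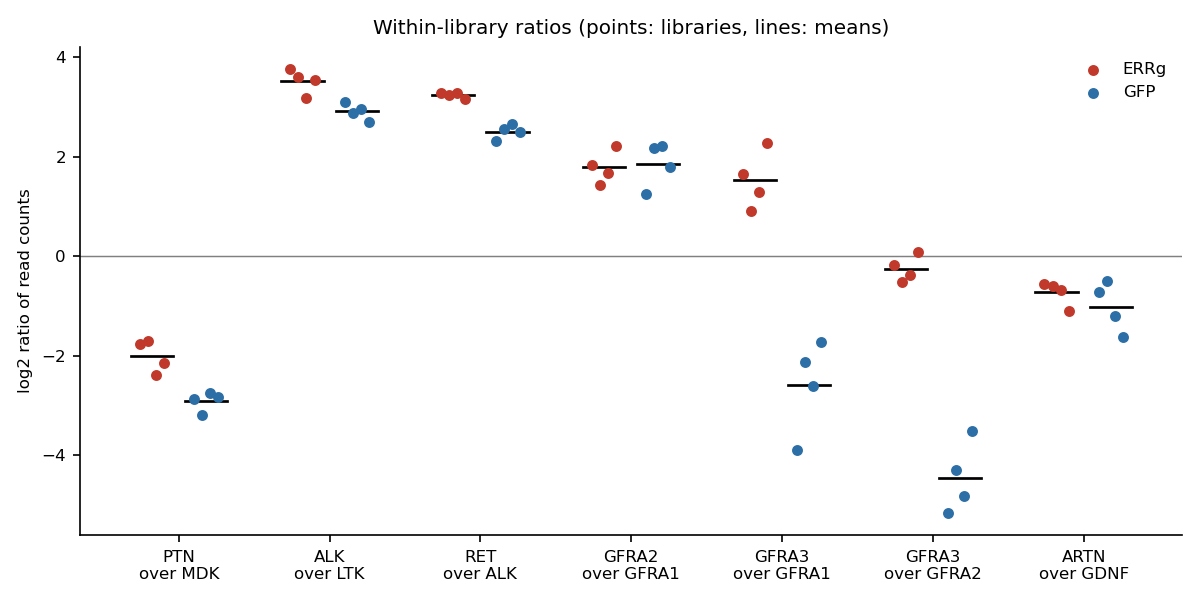
Log2 ratios of the counts of 7 gene pairs within each library, 4 ERRg and 4 GFP, with bars for the group mean. GFRA3 over GFRA1 and GFRA3 over GFRA2 differ by 4.13 and 4.20 between ERRg and GFP, RET over ALK by 0.73, and the libraries of GFRA2 over GFRA1 and of ARTN over GDNF overlap.

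Of 14 other ligands and co-receptors of the ALK, RET, PTN and MDK systems, 10 could be tested, of which 2 were higher and 8 lower (median log2 fold change -0.86), beside 38.8% higher and 35.9% lower of all tested genes. Under the offsets the split was 3 higher and 4 lower, with a median of -0.09, beside 35.9% higher and 35.6% lower of all coding genes tested. ALKAL2, an activating ligand of ALK and LTK, was at 2.26, 1.73, 2.01 and 1.63 CPM in ERRg libraries 1 to 4 and at 1.28, 0.552, 0.504 and 0.947 CPM in GFP libraries 1 to 4. The groups did not overlap, and ALKAL2 was higher in ERRg by 1.21 on the log2 scale (SE 0.27, edgeR adjusted p = 0.000429) and by 2.17 with the offsets. ALKAL1, the second such ligand, was listed at 0 in all 8 libraries, as were the GDF15 receptor GFRAL and PTPRZ1, the receptor phosphatase of PTN and MDK. These values of 0 were not read as absence of expression. The persephin co-receptor GFRA4 was at 0 reads in all ERRg libraries and at most 2 reads in a GFP library.

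SDC4, a heparan sulfate proteoglycan that binds both PTN and MDK, was the other gene of this list called higher, at 175 ± 13.1 CPM in ERRg and 105 ± 7.69 CPM in GFP (mean ± SD, n = 4 each; log2 fold change 0.74, edgeR adjusted p = 2.33e-07) and 1.22 with the offsets. Its relatives SDC1 (-1.64, and -0.57 with the offsets) and SDC3 (-0.91, and 0.02 with the offsets, no longer called) were lower. NCAM1, an adhesion molecule that can act as a RET-independent GDNF receptor, was lower under both (-0.71 and -0.57), and so were PSPN, the persephin gene (-1.61 and -0.44), and PTPRS, a receptor phosphatase (-1.10 and -0.19). PTPRS turned with the offset for GC content alone (0.14). GDF15 (-1.38) and LRP1 (-0.81), an endocytic receptor for MDK, were lower with TMM but not called with the offsets (-0.04 and -0.13), and LRP1 was higher with the offset for GC content alone (0.29). NRTN, the neurturin gene, was lower with TMM (-0.76, edgeR adjusted p = 0.0403) and higher with the offsets (0.94, edgeR adjusted p = 0.0114). Its TMM call held without ERRg library 3 (-0.92), GFP library 1 (-1.03) or GFP library 4 (-0.89), and was lost without each of the other 5 libraries (-0.63 to -0.79).

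Among 30 adaptors and effectors that act below phosphorylated ALK or RET, 26 were tested, with 9 higher and 15 lower (median -0.35), and 9 higher and 12 lower with the offsets (median -0.15). Called genes thus made up 92.3% of the list under TMM and 80.8% with the offsets, beside 74.7% and 71.5% of all genes tested in those fits. By direction, 38.8% of all tested genes were higher and 35.9% lower under TMM, and 35.9% and 35.6% with the offsets. The 4 with the smallest p all kept their direction with the offsets. DOK1, a docking protein that restrains kinase signalling, was at 11.4 ± 2.51 CPM in ERRg and 49.2 ± 8.25 CPM in GFP (-2.12, and -0.73 with the offsets). SHC1, the adaptor that links receptors to GRB2, was at 288 ± 31.3 CPM in ERRg and 779 ± 64.6 CPM in GFP (-1.44 and -0.41). DOK6, a docking protein that binds RET, was higher at 47.1 ± 8.61 CPM in ERRg and 15.9 ± 1.12 CPM in GFP (1.57 and 0.87). The kinase gene SRC was at 26.2 ± 4.82 CPM in ERRg and 70.1 ± 7.24 CPM in GFP (-1.42 and -0.49; SD, n = 4 each for these genes).

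Of 16 transcription factors described as regulators of RET or ALK, 11 were tested, with 0 higher and 8 lower (median -0.80), whereas 4 were higher and 3 lower with the offsets (median 0.09). The shares called in either direction, 72.7% under TMM and 63.6% with the offsets, were near the 74.7% and 71.5% of all genes tested in those fits. By direction they were not alike under TMM: all called regulators were lower, where 38.8% of all tested genes were higher and 35.9% lower. With the offsets, 35.9% of all coding genes tested were higher and 35.6% lower. EGR1, an immediate-early factor, was lower under both scalings (-1.73 and -0.68). TBX2, a factor of the neuroblastoma core circuit, was at 131 ± 21.5 CPM in ERRg and 317 ± 21.7 CPM in GFP (mean ± SD, n = 4 each; -1.28), but at -0.03 and not called with the offsets. PHOX2A, a homeodomain factor of sympathetic neurons (-1.43), and RARA, a retinoic acid receptor (-1.06), turned to 0.09 and 0.08 with the offsets and were not called there. The plot of gene lists sets these counts beside the whole table.

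**Figure D5:**
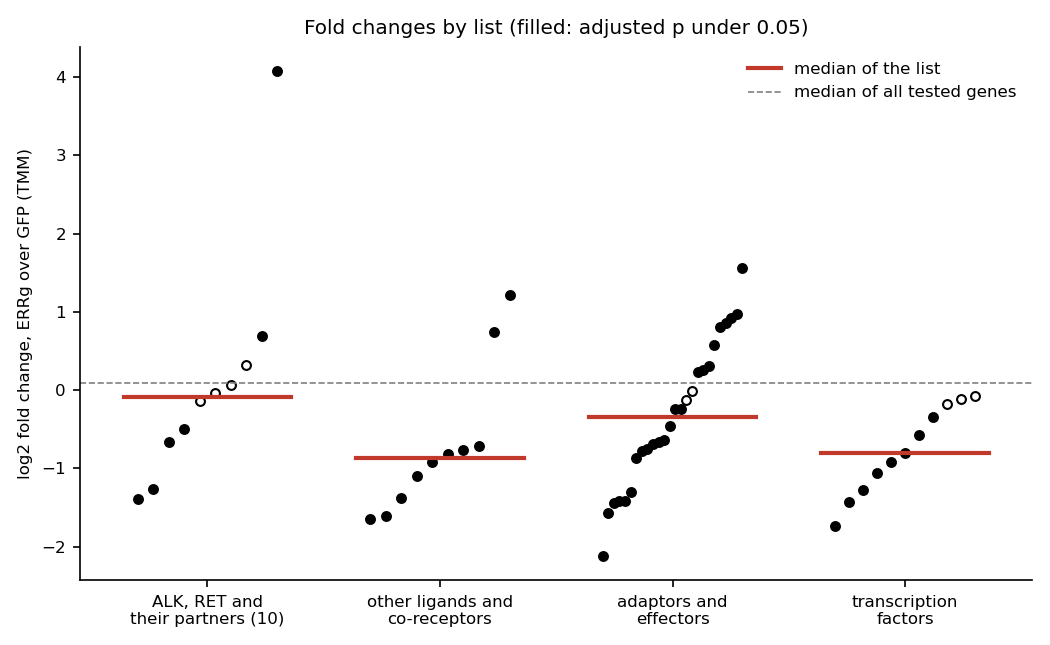
Log2 fold changes, ERRg over GFP, of the tested genes of the 4 lists under TMM scaling, with the regulators labelled as transcription factors; each point is a gene (filled where the adjusted p is under 0.05), each red line a list median and the dashed line the median of all tested genes, 0.09. The 10 receptor and ligand genes have a median of -0.09, the other ligands and co-receptors -0.86, the adaptors -0.35 and the transcription factors -0.80.

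Likeness of pattern was described by Pearson's r of log2 CPM over the 8 libraries among 13453 genes. Among the genes most like ALK were SCFD2 (r = 0.992) and EEF1AKMT1 (r = 0.990). Such likeness was common, since 5176 genes exceeded 0.9 with ALK, and all points share the same split into groups. The genes most like RET were BBS9 (r = 0.895), HERC2 (0.889) and IGFBP5 (0.882), and 0 genes exceeded 0.9.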

How the data were processed

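The authors deposited unnormalised read counts per gene for all 8 libraries as 1 table. Libraries were directional and made from RNA without ribosomal RNA, per the labels' protocols. The tools named in the submitters' processing notes are HTSeq 0.11.3, STAR 2.7.8a, Trim Galore 0.6.6, DESeq2 and CASAVA, and the build is GRCh38. The sources used here give neither the annotation release nor the strand setting. Lines of the table that name no gene entered neither library sizes nor tests. Their shares of the reads were 46.7% in ERRg and 20.9% in GFP for reads outside exons, 5.44% in ERRg and 12.1% in GFP for reads in several genes, and 6.41% in ERRg and 11.9% in GFP for reads aligned more than once.

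Gene symbols were looked up for 60419 identifiers, and positions, lengths and GC content were taken from GENCODE 29 on GRCh38 for 58444. Identifiers were matched without their version: only 1 of the 10 genes (MDK) has the same version in GENCODE 29, so the coordinates and lengths of the others, and the RPKM made from them, may differ from the gene models the authors counted. Genes were tested with edgeR 4.0.16 in R 4.3.3: TMM, filterByExpr, group as the sole term, all 8 libraries, two-sided quasi-likelihood test, Benjamini-Hochberg adjustment over 21993 genes, threshold 0.05. Offsets were natural splines with 5 degrees of freedom per library in GC content, length and span. In ratios 0.5 was added to each count. Only the main TMM fit was tested on simulated counts, in which few genes changed and no trend with GC content was set. That simulation covers neither the offsets nor the ratios nor the alternatives. Alternatives were other scalings, the DESeq2 1.42.0 Wald test, limma 3.58.1 voom, other filters and thresholds, the replicate block and leaving out each library.

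All members and every gene of the list of other ligands were named. In the lists of adaptors and of regulators, the 4 genes with the smallest p were named, as were ESRRG and the 3 genes most like ALK and RET among those with an average log2 CPM of at least 1. Not every gene that this rule names is reported here. Neighbouring genes were added after their values were seen. Members and lists were chosen with earlier results of these data known.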

Additional observations from a re-analysis of the deposited data

Results flagged for a closer look

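Reads outside annotated exons belong to none of the gene comparisons, and they made up 46.7% of all reads on average in ERRg libraries, against 16.2% to 24.2% in the GFP control libraries (n = 4 each). Over the 10 genes and the other measures, 54 groups of 4 libraries were searched for a library that stood apart from the other 3, and 0 were found, where chance gives about 1 in 20.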

How the results depend on the processing

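The call and direction of GFRA3 held under 22 of 23 alternatives, the exception being the covariate fit. The alternatives reuse the same 8 libraries, and GFRA3 passed the filter only through the ERRg libraries. They therefore describe dependence on processing and are no separate support for its change. Over all genes, those called higher and lower numbered 4821 and 4783 of 13426 with the offsets for GC content, length and span. They were 4892 and 4850 of 13426 with the GC offset alone. Of 21993 genes, 11791 and 5383 were called with library totals and 11041 and 6045 with upper-quartile factors. The DESeq2 Wald test called 8121 and 8063 of them, and 7156 and 7183 passed at an adjusted p under 0.01. Against a log2 fold change of 1 they were 1692 and 2302, and with the share of reads outside exons as a covariate 6 and 2. Without a filter 9166 of 41858 were higher, and 8240 of 24675 with ERRg replicates summed. When each library was left out, 7611 to 8518 were higher, of 22352 to 22974. Of the 10 genes, those called higher numbered 4 with library totals, 5 with the offsets, 6 with the GC offset and 0 with the covariate. They numbered 1 with the DESeq2 Wald test, without a filter, at an adjusted p under 0.01, against a log2 fold change of 1 and with ERRg replicates 1 and 2 and replicates 3 and 4 summed, and 1 to 2 when each library was left out. Those called lower numbered 1 with the offsets, 2 with the GC offset, 1 against a log2 fold change of 1 and 0 with the covariate. Other ligands called higher numbered 6 with the GC offset, and those called lower 4 with the offsets and 4 with the GC offset. Adaptors called lower numbered 9 with the GC offset. Regulators called higher numbered 1 with upper-quartile factors, 2 with library totals, 4 with the offsets and 3 with the GC offset, and those called lower 3 with the offsets and 4 with the GC offset. Against a log2 fold change of 1, other ligands numbered 0 higher and 3 lower, adaptors 1 higher and 5 lower, and regulators 3 lower; with the covariate each of these lists had 0 higher and 0 lower.

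Directions turned for ALK (0.33), LTK (0.0154), GFRA1 (0.11), GFRA2 (0.70), NRTN (0.77), PTPRS (0.14), SDC3 (0.13), LRP1 (0.29) and RARA (0.19) with the GC offset. They turned for LTK (0.0935), GFRA2 (0.50), NRTN (0.94), SDC3 (0.0172), PHOX2A (0.0937), RARA (0.0784) and the ratios of PTN to MDK (-0.62), ALK to LTK (-0.12) and, not called under either, GFRA2 to GFRA1 (0.67) with the full offsets. Upper-quartile factors turned GFRA1 (0.27) and GFRA2 (0.17), and library totals turned GFRA1 (0.37) and GFRA2 (0.27). The covariate turned GFRA2 (1.32), GDNF (-1.96), ARTN (-1.001), ALKAL2 (-2.49), NRTN (2.65), EGR1 (0.32) and PHOX2A (0.0923), none called. Leaving out a library gave RET -0.0472 to 0.10 and GFRA1 -0.24 to 0.12. The cause of these changes was not tested.

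With the replicate block, 1 of the 10 genes was called higher, beside 8191 of all 21993 genes tested. In that setting 0 of the 7 ratios was called, the smallest p for 4 pairs being 0.125. Ratios called ranged from 0 (without any GFP library) to 5 (without any ERRg library). No pairing by replicate number was seen: deviations of same-numbered libraries correlated at 0.09, -0.16, -0.08 and -0.05. Those of differently numbered libraries correlated at -0.20 to 0.23. With 4 libraries per group these values cannot exclude pairing. The summed and covariate fits were chosen after seeing the data. ERRg replicates 1 and 2, and 3 and 4, were closer (chi-square per gene 2.90 and 5.02) than other ERRg pairs (9.87 to 22.4). Depth limits GFRA1, GDNF, ARTN and LTK, which rest on 9 to 73 reads per library, and the GFP level of GFRA3, which rests on 2 to 6.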
